A study of Mus musculus with 8 samples.

Results

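Glucocorticoid-responsive genes were followed across the cell types of mouse dorsal skin in 8 single-cell libraries. The 7 genes, of 31053 in the deposited gene index, are the receptor gene Nr3c1, the hormone-activating enzyme gene Hsd11b1 and 5 target genes, Fkbp5, Tsc22d3, Sgk1, Klf9 and Zbtb16. They were taken by gene symbol, and the list was chosen from values of these same libraries, namely levels across cell types and differences between library numbers, so both are given as descriptions without a test. Earlier results of these data were known at that choice, so the p-values by treatment are not free of it either. The mice were female BALB/c animals with a labelled age of 14 to 16 weeks. In 4 libraries the skin had received PBMCsec, the secretome of irradiated human peripheral blood mononuclear cells, by subcutaneous injection, and in 4 a vehicle, with libraries numbered 1 to 4 in each group. The labels give neither the time point, nor a wound, nor the composition of the vehicle. The study that reported the data describes mouse scars after full-thickness back wounds. They were treated topically or by intradermal injection, with NaCl or medium as controls. The labels do not say whether these libraries came from such scars. PBMCsec is a mixture of many secreted molecules, and the labels name no steroid treatment in any group.

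Glucocorticoids act through the receptor encoded by Nr3c1, which waits in the cytoplasm bound to heat shock proteins, enters the nucleus when corticosterone binds, and regulates genes through glucocorticoid response elements. Hsd11b1 encodes the enzyme that regenerates active corticosterone from its inactive keto form inside the cell. Corticosterone reaches the skin from the adrenal gland with a daily rhythm.

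The response element searched here is the hexamer AGAACA followed by its reverse complement TGTTCT, with 3 bases between them. RefSeq promoter windows of build GRCm38.p6, which run from 250 bases before to 50 bases after a transcript start, matched 5 of the 7 genes with 12 windows, and Zbtb16 and Nr3c1 had no match. Each hexamer is the reverse complement of the other, so the search covers both strands. Among all 32851 windows of that length, 19.0% held a hexamer, and 3 windows, 0.00913%, held the full palindrome. Of the 12 windows, 4 held a hexamer, 3 of the 6 windows of Sgk1 and 1 of the 3 windows of Tsc22d3, and 1 window of Sgk1 held the full palindrome. The single windows of Fkbp5, Klf9 and Hsd11b1 held neither. The palindrome of Sgk1 reads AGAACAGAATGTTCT and begins 189 bases before the start. The hexamer of Tsc22d3 begins 185 bases before the start. Both windows are shown 5′ to 3′ with hexamers in capitals, since they hold the full and the single motif: chr10:21993640-21993939 on the plus strand for Sgk1 and chrX:140600473-140600772 on the minus strand for Tsc22d3.
Sgk1: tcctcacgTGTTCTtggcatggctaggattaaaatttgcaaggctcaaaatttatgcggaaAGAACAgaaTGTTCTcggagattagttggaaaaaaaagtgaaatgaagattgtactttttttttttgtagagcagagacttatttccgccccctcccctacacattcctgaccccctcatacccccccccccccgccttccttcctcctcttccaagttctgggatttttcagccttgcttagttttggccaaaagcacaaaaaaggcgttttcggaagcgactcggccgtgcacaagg
Tsc22d3: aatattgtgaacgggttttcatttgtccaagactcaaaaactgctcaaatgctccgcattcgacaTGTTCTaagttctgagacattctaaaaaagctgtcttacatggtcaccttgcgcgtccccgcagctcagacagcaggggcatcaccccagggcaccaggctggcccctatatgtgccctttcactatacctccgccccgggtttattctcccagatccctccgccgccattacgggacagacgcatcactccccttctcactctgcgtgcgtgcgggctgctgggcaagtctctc
A match of letters describes the window and is not a measured binding site.

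In GRCm38 the genes lie at chr10:21882184-21999903 (Sgk1, plus strand), chrX:140539528-140600659 (Tsc22d3, minus strand), chr17:28399094-28517527 (Fkbp5, minus strand), chr19:23141226-23168134 (Klf9, plus strand), chr9:48654297-48836222 (Zbtb16, minus strand) and chr1:193221634-193264075 (Hsd11b1, minus strand). Counts from the 3′ end were summed per gene and do not tell transcripts apart.

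The libraries held 14753926 to 37880651 UMIs and 26231 barcodes in all, of which 16900 had more than 5% mitochondrial UMIs. The limits of the study left 6150 cells, 151 to 1659 per library, with the fewest in vehicle 1 (151) and vehicle 2 (208). Among the kept cells, 4 barcodes occurred in more than 1 library. Cells were clustered anew, and 27 of 35 clusters were named from markers: fibroblasts (FBs, 1540 cells), keratinocytes (KCs, 1024), hair follicle cells (HFs, 700), T cells (TCs, 772), dendritic cells and macrophages (DC/Macro, 514), neutrophils (Neutro, 118), endothelial cells (ECs, 83), melanocytes (Mel, 58), smooth muscle cells and pericytes (SMCs/PCs, 39) and mast cells with basophils (Mast/Baso, 31). The 8 unnamed clusters held 20.7% of the cells. Because the names were rebuilt, a level by class can differ from that of the study.

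All 7 genes were detected in the kept cells, and their cell type patterns differed. The receptor gene had a UMI in 61.6% of cells (8185 UMIs), Klf9 in 42.5% (6721), Sgk1 in 35.5% (5709), Tsc22d3 in 27.9% (3571), Zbtb16 in 12.8% (1185), Hsd11b1 in 11.9% (1600) and Fkbp5 in 8.57% (621). Levels across classes are given below as CPM, the UMIs of a gene scaled to a common total of UMIs of the class, with the mean ± SD over libraries with at least 10 cells of the class. For every gene, each class overlapped in range with the next class in the order of means, and the difference of neighbouring means exceeded the sum of their SDs only for Zbtb16 between TCs and DC/Macro and for Hsd11b1 between TCs and Neutro. Levels are compared between cell types for 1 gene at a time, and not between genes.

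Nr3c1, the receptor, was detected in every library of the 8 classes compared. It was highest in ECs at 332 ± 73.0 CPM (SD, n = 6 libraries) and TCs at 302 ± 78.1 (n = 8), followed by Mel at 274 ± 80.7 (n = 4) and FBs at 188 ± 40.2 (n = 8). The lowest means were 82.7 ± 22.4 CPM in KCs and 80.0 ± 39.0 in DC/Macro (n = 8 each). The ranges of TCs, 197 to 409 CPM, and DC/Macro, 25.4 to 125, did not overlap. Among clusters, pooled over libraries, Nr3c1 was highest in the TCs led by Ctla4, Areg and Icos, genes of activated and regulatory T cells, at 521 CPM with a UMI in 74.9% of 187 cells. An unnamed cluster led by Csf2, Arg1, Il13 and Il1rl1 was next at 517 CPM in 87 cells. An unnamed cluster of 69 cells led by Slc26a7, Crabp1 and Wif1 followed at 514 CPM. The lowest clusters were the HFs led by Krt25, an inner root sheath keratin, at 43.6 CPM and the KCs led by Cst6 and Krt79 at 45.5 CPM.

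Hsd11b1, the enzyme that regenerates corticosterone, was concentrated in FBs and in part of the TCs. FBs held 82.8% of its UMIs and TCs 11.1%. Its mean was 143 ± 159 CPM in FBs and 54.1 ± 19.5 in TCs (n = 8 each), against 3.43 ± 5.43 in DC/Macro, 1.07 ± 1.82 in HFs (n = 7) and 0.0871 ± 0.162 in KCs (n = 8). A UMI was seen in 34.9% of FBs and 17.9% of TCs but in 0.195% of KCs, although KCs were deeper, with a median of 11005 UMIs per cell against 8735 in FBs and 3360 in TCs. With each cell thinned to 1000 UMIs the shares were 8.50% in FBs, 5.48% in TCs and 0% in KCs. In Mel 0 of 58 cells had a UMI, which allows a share of up to 5.17%. Among TCs the cluster led by Trdc, a gamma-delta T cell receptor gene, and Cd7 stood at 155 CPM with a UMI in 46.3% of 54 cells. The cluster led by Gzma, a granzyme gene, and Ccl5 stood at 108 CPM in 36.2% of 149 cells, with 82 of the 178 UMIs of the TCs. It passed T cell markers such as Cd3e and Trac, but Ncr1 and Klrd1, genes also of natural killer cells, were among its leading genes. Whether it held such cells was not tested. The TCs led by Ctla4 stood at 10.6 CPM. Outside FBs and TCs, the unnamed cluster led by Slc26a7, Crabp1 and Wif1 stood at 148 CPM from 51 UMIs, in 27.5% of 69 cells. Among FBs the pooled level was 139 CPM in the cluster led by Sfrp2, 132 CPM in that led by Mrgprg, 102 CPM in that led by Ptx3 and Cxcl1, 77.9 CPM in that led by Igf1 and Mgp, and 24.0 CPM in that led by Igfbp2. These pooled levels include PBMCsec 2. In libraries 3 and 4 alone they were 114, 134, 95.4, 35.1 and 6.21 CPM in the same order, with the Mrgprg cluster highest. Without PBMCsec 2 the FB mean was 88.8 ± 49.2 CPM (SD, n = 7).

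Fkbp5, the co-chaperone that lowers the affinity of the receptor for its hormone, was highest in TCs at 39.0 ± 16.9 CPM and lowest in KCs at 4.36 ± 4.68 and HFs at 5.63 ± 2.92. The ranges of TCs, 19.4 to 62.3 CPM, and KCs, 0 to 12.4, did not overlap. FBs stood at 21.5 ± 12.4 CPM and DC/Macro at 11.8 ± 8.29. The highest cluster was the unnamed one led by Slc26a7, Crabp1 and Wif1, at 78.5 CPM from 27 UMIs, and the next was the ECs led by Fabp4 at 51.0 CPM from 11 UMIs.

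Tsc22d3, which encodes the anti-inflammatory leucine zipper protein GILZ, had its highest class means in leukocytes, with 276 ± 118 CPM in DC/Macro and 224 ± 68.6 in TCs (n = 8 each) against 87.8 ± 45.8 in FBs, 44.4 ± 15.5 in KCs (n = 8) and 19.8 ± 13.7 in HFs (n = 7). Mel stood between them at 187 ± 142 (n = 4). Not all leukocyte clusters were high, with the DC/Macro cluster led by Lyz1 at 48.8 CPM. High levels were not limited to leukocytes either, since the unnamed Slc26a7 cluster, which carried the fibroblast marker Pdgfra, stood at 238 CPM. The DC/Macro range, 192 to 556 CPM, lay above the FB range, 44.7 to 162. Within DC/Macro the level was concentrated in 1 cluster, led by Cd207, which encodes langerin, the marker of Langerhans cells. That cluster stood at 629 CPM with a UMI in 87.9% of 124 cells, and held 616 of the 976 UMIs of the class. The TCs led by Trdc and Cd7 were next at 344 CPM. The lowest clusters were 2 unnamed ones led by Tagln and Dio3 (2.46 CPM) and by Wfdc18 and Krt6a (4.78 CPM).

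Sgk1, a serum- and glucocorticoid-regulated kinase that controls ion channels and cell survival, was high in a part of the HFs and low in leukocytes when classes were named by cluster. Its mean was 262 ± 216 CPM in HFs (n = 7), 152 ± 87.0 in ECs (n = 6), 88.4 ± 43.6 in FBs and 51.4 ± 21.5 in KCs, against 37.3 ± 12.8 in TCs and 34.5 ± 25 in DC/Macro (n = 8 each). The HF range, 94.0 to 737 CPM, lay above the TC range, 19.0 to 58.3, and its highest value was that of PBMCsec 1. With classes from markers per cell, KCs were highest of the classes compared at 155 CPM, and with a mitochondrial limit of 20% as well at 195 CPM. By that naming few cells were called HFs, 0 to 19 per library even with the limit of 20%. HFs are therefore not ranked there. Unnamed clusters held 40.2% of the UMIs of Sgk1. The highest clusters were the HFs led by Nppc and Scrg1 (346 CPM, 68.1% of 408 cells) and the unnamed clusters led by Sostdc1 and Ccl27a (300 CPM) and by Gnmt and Fhod3 (268 CPM). The other HF cluster, led by Krt25 and Krt71, stood at 61.6 CPM with a UMI in 25.3% of 292 cells. That was near the DC/Macro cluster led by C1qb, at 59.4 CPM. The Cd207 cluster, highest for Tsc22d3, was lowest for Sgk1 at 5.11 CPM from 5 UMIs.

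Klf9, a Krüppel-like transcription factor that also follows the circadian clock, was high in Mel, FBs and ECs and low in leukocytes. It stood at 450 ± 377 CPM in Mel (n = 4), 292 ± 94.8 in FBs (n = 8), 271 ± 94.9 in ECs (n = 6) and 161 ± 58.5 in KCs (n = 8), against 20.3 ± 20.1 in DC/Macro and 19.0 ± 15.6 in TCs (n = 8 each). The Mel mean rested on PBMCsec 1 (1010 CPM in 10 cells), and without it was 264 ± 64.6 (n = 3), below that of FBs. FBs were highest under each alternative way of choosing cells, among the classes ranked above that had a mean there. SMCs/PCs were not ranked in any setting. Mel could be compared only with the mitochondrial limit of 20% and classes from markers, where Mel ranked 4. In the other alternatives too few libraries held 10 Mel cells for a mean. The FB range, 183 to 423 CPM, lay above the TC range, 3.81 to 55.5. The highest clusters were the unnamed one led by Slc26a7, Crabp1 and Wif1 at 758 CPM, the SMCs/PCs at 614 CPM with a UMI in 87.2% of 39 cells, and Mel at 492 CPM. The neutrophils had 1 UMI of Klf9 in 118 cells.

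Zbtb16 encodes the zinc finger protein PLZF, a lineage factor of innate-like T cells as well as a steroid target. It stood at 41.8 ± 32.4 CPM in FBs, 27.1 ± 20.7 in KCs and 17.7 ± 10.4 in TCs, against 0.375 ± 0.698 in DC/Macro (n = 8 each). Between FBs and KCs lay Neutro (40.0 ± 38.9, n = 4), Mel (39.7 ± 41.4, n = 4), HFs (38.8 ± 56.2, n = 7) and ECs (27.9 ± 35.2, n = 6). With classes from markers per cell Neutro were highest of the classes compared at 44.6 CPM, and with a mitochondrial limit of 20% as well KCs at 44.2 CPM. The TC value came from a part of the TCs. The cluster led by Blk and Trdc stood at 137 CPM with 54 UMIs, the highest of all clusters, with a UMI in 36.2% of 94 cells. The TCs led by Trac and Cd4 and those led by Ctla4 held 0 UMIs in 475 cells, which allows a share of cells with a UMI of up to 0.632%. The next cluster was the unnamed cluster led by Sostdc1 at 63.8 CPM. DC/Macro held 2 UMIs in 514 cells.

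**Figure D1:**
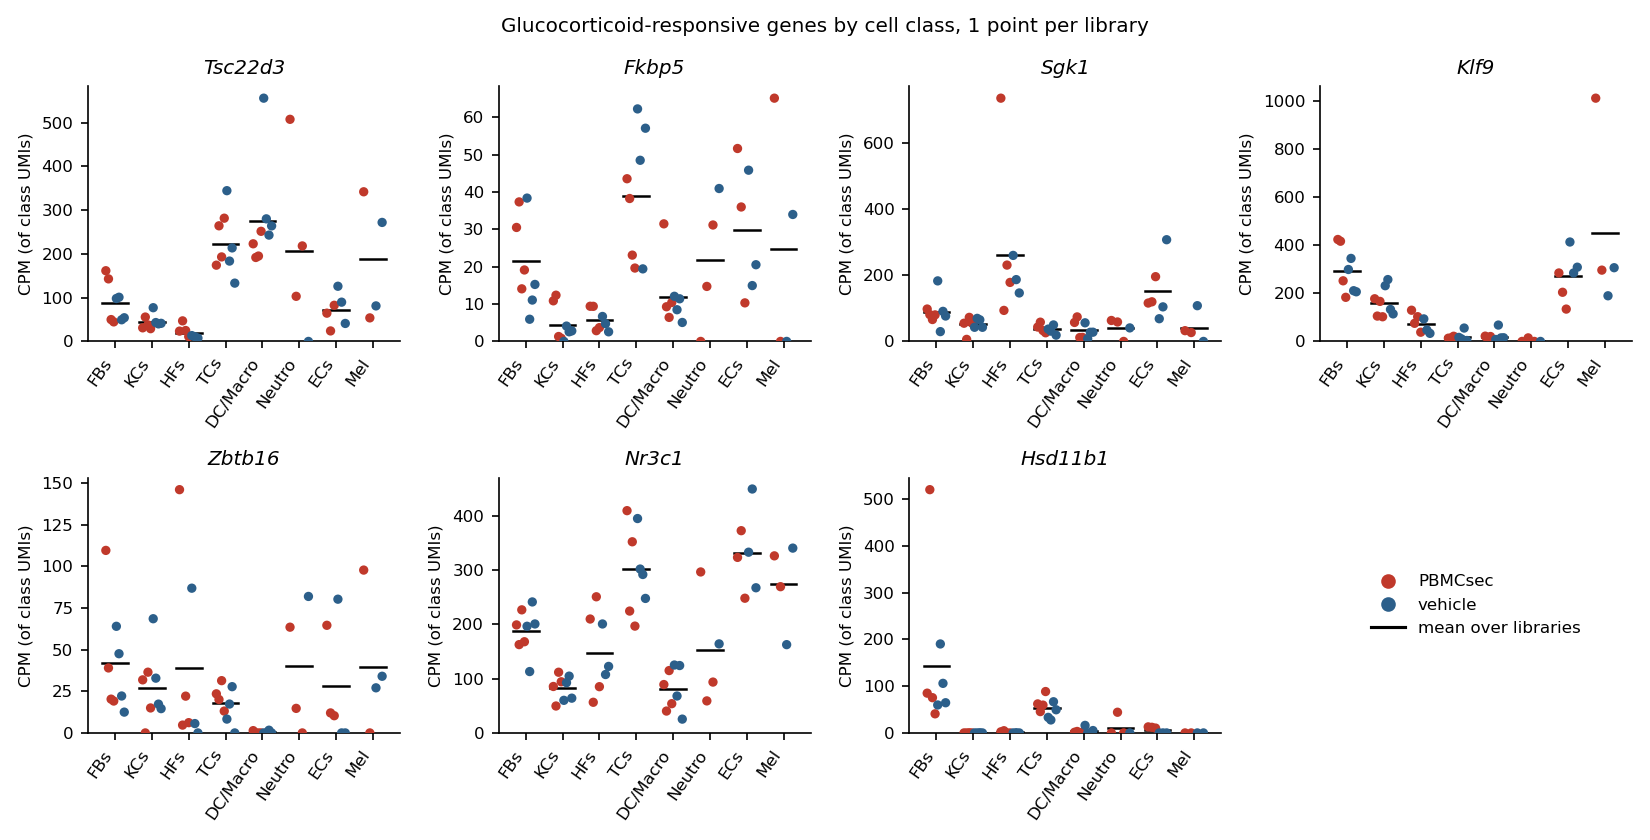
The CPM of each gene (vertical axis, scaled to the UMIs of the class) is plotted by cell class, 1 point per library with at least 10 cells of the class, red for PBMCsec and blue for vehicle, with the mean as a bar. Tsc22d3 is highest in DC/Macro and Fkbp5 in TCs, Sgk1 in HFs, and Hsd11b1 in FBs, where PBMCsec 2 reaches 520 CPM.

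**Figure D2:**
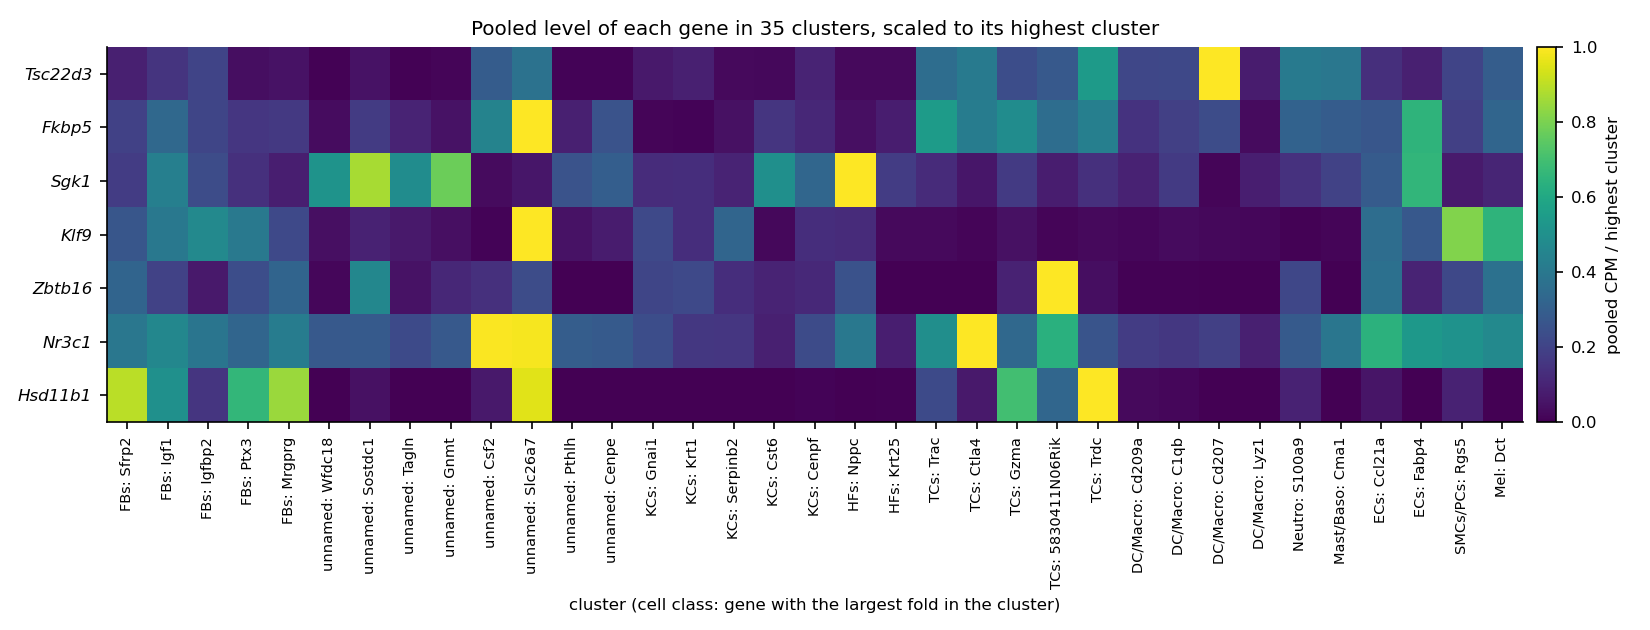
Each column is 1 of 35 clusters, labelled by its class and leading gene, and each row 1 gene, with colour giving the CPM pooled over libraries divided by that of the gene's highest cluster. Tsc22d3 peaks in the Cd207 cluster at 629 CPM, Zbtb16 in the TC cluster that also holds Blk and Trdc at 137 CPM, and Klf9 and Fkbp5 in the unnamed Slc26a7 cluster at 758 and 78.5 CPM.

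Over the 35 clusters, the pattern of each gene was compared with that of 3424 genes of at least 50 CPM in mean, by Pearson's r of log2(CPM + 10). The clusters share libraries and differ in depth, so r is descriptive. The closest genes were Fxyd5 and Gng2 for Tsc22d3 (r = 0.84 each), Gramd1a and Marf1 for Fkbp5 (0.75 each), Adgra3 (0.72) and Nfib (0.70) for Sgk1, Cavin1 (0.91) and Cyr61 (0.90) for Klf9, Abi3bp (0.63) and Elf2 (0.61) for Zbtb16, Tnrc6b (0.82) and Uhrf2 (0.78) for Nr3c1, and Rev3l (0.80) and Stk38 (0.75) for Hsd11b1. Among the 7 genes themselves, Nr3c1 and Fkbp5 had the highest r, 0.67, and Tsc22d3 and Sgk1 the lowest, -0.63.

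The treatment comparison asked whether PBMCsec changed these genes within a cell class. UMIs were summed per library and class, since cells of a library are not replicates, and tested with edgeR's quasi-likelihood test over all genes. This was done for FBs, KCs, TCs and DC/Macro, of which each library held 10 cells or more. No gene passed an adjusted p of 0.05 in FBs (9393 genes tested), KCs (8126), TCs (4702) or DC/Macro (5594), so the share of genes called was 0% in each class. At an unadjusted p under 0.05 there were 226, 137, 154 and 257 genes, and DESeq2 called 0, 2, 2 and 6. None of the 7 genes was called in any class. Each group of 4 libraries is 4 samples by the labels, which do not say that each came from a separate animal, so the p-values measure the spread between these libraries. The filter on low counts passed 7 of them in FBs, 5 in KCs (not Fkbp5 or Hsd11b1), 5 in TCs (not Klf9 or Zbtb16) and 3 in DC/Macro (Tsc22d3, Sgk1 and Nr3c1). No gene of the 7 had PBMCsec and vehicle libraries without overlap, which 1.80% of genes had in FBs, 1.56% in KCs, 2.45% in TCs and 2.75% in DC/Macro. The median log2 fold change of the members tested was 0.58 in FBs, -0.04 in KCs, 0.12 in TCs and -0.17 in DC/Macro, against 0.00, 0.01, -0.01 and -0.02 for all genes. The FB value depended on the fit. With each library counted equally, the difference of mean log2 CPM in FBs was 0.29 for Tsc22d3 and Zbtb16, 0.26 for Hsd11b1 and 0.27 for Klf9. It was 0.74 for Fkbp5, 0.10 for Nr3c1 and 0.09 for Sgk1. In the values per library that follow, CPM are scaled by edgeR's TMM factors, and libraries are given in the order 1 to 4.

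In FBs the PBMCsec and vehicle ranges overlapped for each of the 7 genes. Hsd11b1 was measured at 88.3, 533, 76.1 and 43.2 CPM in PBMCsec and at 57.8, 202, 101 and 64.3 CPM in vehicle. Only PBMCsec 2 stood far above the rest, and the other PBMCsec values lay within the vehicle range or below it. The log2 fold change was 0.85 (SE 0.70, edgeR adjusted p = 1.0), and without PBMCsec 2 it was -0.49. In that library 320 UMIs came from 54 of 69 FBs, with at most 23 in 1 cell, and the Sfrp2 cluster held 150 of them and the Igf1 cluster 127.

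Fkbp5 was measured in FBs at 31.7, 38.3, 14.2 and 20.2 CPM in PBMCsec and at 37.2, 6.30, 10.5 and 15.2 in vehicle, where vehicle 2 rests on 1 UMI and vehicle 1 on 9. Its log2 fold change was 0.71 (SE 0.44, edgeR adjusted p = 1.0). Tsc22d3 was measured at 168, 147, 50.4 and 47.2 CPM in PBMCsec and 95, 107, 47.1 and 54.0 in vehicle. Its log2 fold change was 0.58 (SE 0.45), with both groups high in libraries 1 and 2 and low in libraries 3 and 4. It was -0.03 in libraries 3 and 4 alone.

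Klf9 was measured at 440, 427, 254 and 194 CPM in PBMCsec FBs and at 289, 365, 200 and 205 in vehicle FBs, a log2 fold change of 0.34 (SE 0.31). Zbtb16 was measured at 114, 40.0, 20.5 and 20.2 CPM in PBMCsec and 62.0, 50.4, 21.1 and 12.5 in vehicle. Its log2 fold change was 0.85 (SE 0.65), and -0.12 without PBMCsec 1, which held the highest value. Sgk1 was measured at 102, 83.3, 67.0 and 85.0 CPM in PBMCsec and at 178, 31.5, 86.6 and 76.8 in vehicle, whose highest and lowest libraries lay outside the PBMCsec range. The log2 fold change of Sgk1 was -0.14 (SE 0.33). Nr3c1 was measured at 206, 167, 229 and 177 CPM in PBMCsec and 190, 120, 229 and 200 in vehicle, with a log2 fold change of 0.05 (SE 0.23). The adjusted p of all 7 genes in FBs was 1.0 by edgeR.

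In KCs the log2 fold changes were -0.33 for Tsc22d3 (SE 0.28), -0.30 for Klf9 (SE 0.30), -0.04 for Sgk1 (SE 0.35), 0.13 for Nr3c1 (SE 0.27) and 0.16 for Zbtb16 (SE 0.49), none of them called. For Zbtb16 the sign of the fit was opposite to that of the group means, 21.2 CPM in PBMCsec and 32.4 in vehicle. Klf9 in KCs was measured at 182, 112, 166 and 105 CPM in PBMCsec and 212, 267, 130 and 121 in vehicle, so that the ranges overlapped. PBMCsec 2 had 17 KCs, with 0 UMIs of Zbtb16 and 1 of Sgk1.

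In TCs, Hsd11b1 was measured at 68.4, 51.5, 63.6 and 98.8 CPM in PBMCsec and 34, 30.1, 70.5 and 54.3 in vehicle. Its log2 fold change was 0.51 (SE 0.31, edgeR adjusted p = 1.0), with vehicle 3 and vehicle 4 inside the PBMCsec range and vehicle 1 and vehicle 2 below it. The share of TCs in the Trdc and Cd7 cluster, the highest for Hsd11b1, was 1.90%, 2.11%, 8.65% and 10.2% in PBMCsec and 0%, 4.00%, 14.6% and 5.33% in vehicle, and its part in the difference was not tested. Fkbp5 in TCs stood at 48.0, 43.3, 24.7 and 22.0 CPM in PBMCsec and 63.7, 52.7, 20.6 and 62.6 in vehicle, a log2 fold change of -0.44 (SE 0.38). The log2 fold changes were 0.28 for Sgk1 (SE 0.34), 0.12 for Tsc22d3 (SE 0.27) and 0.00 for Nr3c1 (SE 0.17). Libraries of the same number correlated in TCs, at 0.18 to 0.41, which does not show that they were paired, and the test above used no block. With the number as a block edgeR called 7 genes in TCs in place of 0, 5 higher and 2 lower. None of them was among the 7 genes described here.

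In DC/Macro, Tsc22d3 came closest to a difference by treatment. It was measured at 235, 204, 204 and 265 CPM in PBMCsec and at 550, 301, 256 and 297 CPM in vehicle, so 3 of the 4 vehicle libraries lay above every PBMCsec library and vehicle 3 within their range. The log2 fold change was -0.62 (SE 0.25), with an unadjusted edgeR p of 0.0277, an adjusted edgeR p of 1.0 and an exact two-sided permutation p of 0.0571, where 70 labellings allow 0.0286 at best. It was the lowest of 20 exact permutation p values, 1 for each gene and class tested. The genes were chosen with earlier results of these data known. The unadjusted and permutation p are therefore descriptions and not support for a difference. Without vehicle 1 the log2 fold change was -0.29. The Cd207 cluster, which carries most of the UMIs of Tsc22d3, made up 13.9%, 17.6%, 28.0% and 19.0% of DC/Macro in PBMCsec and 27.3%, 26.7%, 31.4% and 25.5% in vehicle. In vehicle 1, 6 cells of that cluster held 94 of the 138 UMIs. Outside the cluster Tsc22d3 stood at 148, 182, 77.7 and 109 CPM in PBMCsec and 251, 93.5, 80.7 and 122 in vehicle before TMM scaling, and the log2 fold change was -0.11. Sgk1 and Nr3c1 in DC/Macro had log2 fold changes of 0.18 (SE 0.59) and -0.17 (SE 0.41). Libraries of the same number correlated in DC/Macro as well, at 0.09 to 0.32, and 8 libraries correlated best with their own number. The tests in DC/Macro used no block either.

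**Figure D3:**
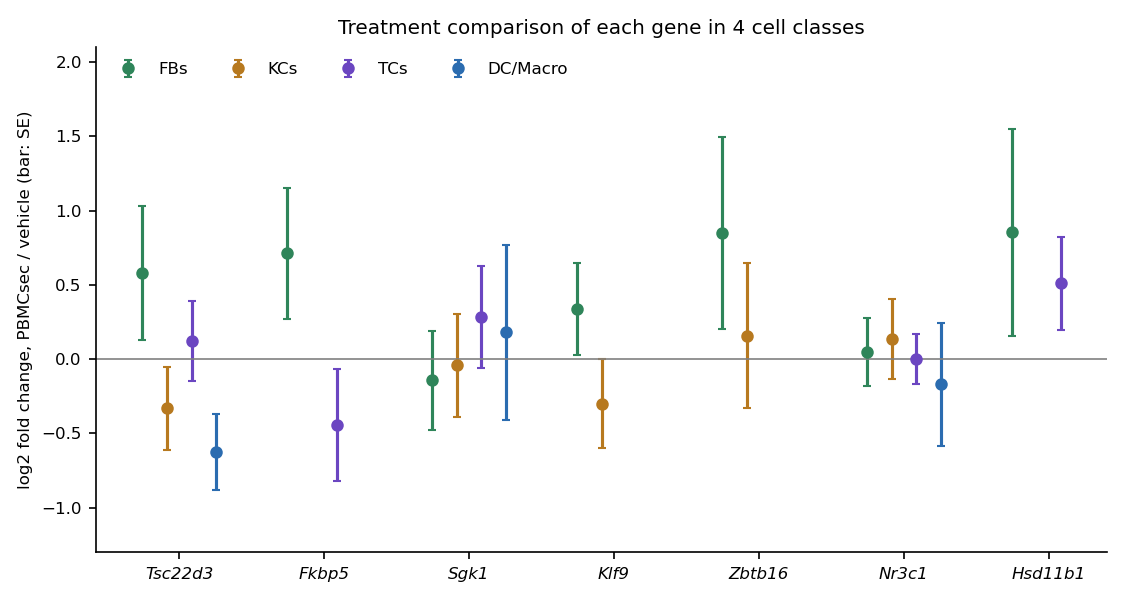
The log2 fold change of PBMCsec over vehicle (vertical axis) is plotted for each gene in FBs, KCs, TCs and DC/Macro, with bars of 1 SE from the edgeR fit on 4 libraries per group. Only classes in which the gene passed the filter on low counts have a point, and no point reached an adjusted p of 0.05.

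Other genes of the pathway, from lists drawn up with earlier results of these data known, also gave no call by treatment in any of the 4 classes. In FBs, 9 of 27 tested glucocorticoid-induced genes were higher and 18 lower, with a median of -0.11. With classes from markers per cell and a mitochondrial limit of 20%, 15 were higher and 14 lower, with a median of 0.02. Cdkn1a, a cell cycle inhibitor (0.90), and Dusp1, a phosphatase of MAP kinases (-0.65), had the lowest p of that list. Of the receptor and ligand machinery, heat shock proteins, co-chaperones and coregulators of the receptor, 11 of 14 tested genes were higher and 3 lower in FBs, with a median of 0.38. The co-chaperones Stip1 (1.03) and Fkbp4 (1.0) had the lowest p. In the other classes the median of the induced genes was -0.20 in KCs, 0.18 in TCs and 0.16 in DC/Macro, and that of the machinery -0.00, -0.03 and 0.18. The induced genes in KCs turned with the naming, to 23 higher and 8 lower with a median of 0.14 for classes from markers per cell, and to 22 higher and 10 lower with 0.17 when the mitochondrial limit was 20% as well. Genes of lowest p were Zfp36l2 (-0.49) and Zfp36 (-0.52), Hsp90aa1 (1.07) and Hspa8 (0.72) in KCs, Cdkn1a (0.93) and Dusp1 (-0.35), and Fkbp4 (0.63) in TCs, and Cd163 (1.05) and Nfkbia (0.69), and Hsp90ab1 (0.34) in DC/Macro.

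Of 12 inflammatory genes that glucocorticoids are known to repress, 6 passed the filter in FBs. Of these, 6 were higher in PBMCsec, with a median log2 fold change of 1.95 and 0 called. A gene can pass the filter on low counts through the libraries of the group where it is high. The counts and medians of this list are therefore descriptions and not a test of direction. Cxcl2, a neutrophil chemokine, was measured at 397 ± 458 CPM in PBMCsec and 17.7 ± 11.9 in vehicle (SD, n = 4 each), a log2 fold change of 4.25 (SE 1.04, edgeR adjusted p = 1.0). The cytokine gene Il6 was measured at 73.4 ± 95.4 CPM against 4.50 ± 3.32, a log2 fold change of 3.99 (SE 1.11, edgeR adjusted p = 1.0). Without the FB cluster led by Ptx3, Cxcl1 and Ccl2, 5 of these genes passed the filter, 3 higher and 2 lower, and the median was 0.44. In DC/Macro 6 of 8 tested were higher and 2 lower with a median of 1.04, and Cxcl1 (4.80) and the gelatinase gene Mmp9 (-1.74) had the lowest p. Summed over 7 neutrophil markers, Mmp9 among them, DC/Macro libraries held 46.4 to 91.2 CPM in PBMCsec and 91.4 to 382 in vehicle. Since Mmp9 counts in this sum, the sum is not a separate measure beside the difference of Mmp9. The part of neutrophils in the differences was not tested. KCs and TCs had 2 tested genes each, Ptgs2 (0.26) and Icam1 (0.05) in KCs and Tnf (-0.25) and Icam1 (-0.05) in TCs. With classes from markers per cell 6 of 6 tested genes were higher in KCs with a median of 1.38, and with the 20% limit as well 9 of 9 with a median of 0.98, against 0.15 here.

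The steroid synthesis list had no gene above the filter in these classes. Of its 11 genes, 4 had no UMI (Hsd3b1, Hsd3b6, Cyp11b1 and Crh), and 0 of 6150 cells allows a share of up to 0.0488%. Cyp11a1, which makes pregnenolone from cholesterol in the first step of steroid synthesis, had the most, with 247 UMIs in 63 cells. Of these, 142 UMIs came from 26 of 31 Mast/Baso cells (1618 CPM) and 96 from 34 of 772 TCs (29.9 CPM), against 0 in 1540 FBs. The other genes detected were Cyp21a1 (48 UMIs), Star (38), Pomc (35), Crhr1 (22), Cyp17a1 (19) and Mc2r (2).

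By library number the FB values of 6 of the 7 genes were lower in libraries 3 and 4 than in libraries 1 and 2, in a model with treatment. The log2 difference was -1.88 for Zbtb16, -1.55 for Hsd11b1, -1.40 for Tsc22d3, -1.01 for Fkbp5, -0.82 for Klf9, -0.37 for Sgk1 and 0.27 for Nr3c1, with a median of -1.01 against -0.01 for all genes tested. All 4 libraries numbered 3 and 4 lay below all 4 numbered 1 and 2 for Tsc22d3, Zbtb16 and Klf9, which is 3 of 7 genes, where 3.25% of all FB genes lay lower in this way and 8.0% did so in either direction. The lowest of libraries 1 and 2 and the highest of libraries 3 and 4 were 95 and 54.0 CPM for Tsc22d3, 40.0 and 21.1 for Zbtb16, and 289 and 254 for Klf9. For Fkbp5 vehicle 2, with its 1 UMI, lay below all libraries numbered 3 and 4, and for Hsd11b1 vehicle 1 and PBMCsec 1 lay below vehicle 3. Without PBMCsec 2 the difference of Hsd11b1 was -0.54. This contrast is among the values on which the genes were chosen, so the counts describe these libraries only.

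The same contrast was also split by FB cluster, as a description of the values on which the genes were chosen. These pooled values do not take treatment into account, and no share over all genes was counted beside them. Pooled over libraries, Tsc22d3, Fkbp5 and Klf9 were lower in libraries 3 and 4 in 5 of 5 FB clusters, Zbtb16, Sgk1 and Hsd11b1 in 4 of 5, and Nr3c1 in 0 of 5. In the Igf1 cluster, the pooled CPM in libraries 1 and 2 and in libraries 3 and 4 was 199 and 60.0 for Tsc22d3, 89.8 and 6.62 for Zbtb16, and 402 and 270 for Klf9. In the Sfrp2 cluster it was 144 and 33.0 for Tsc22d3, 117 and 26.6 for Zbtb16, and 375 and 163 for Klf9. PBMCsec 1 held 70 of the 76 Zbtb16 UMIs of libraries 1 and 2 in the Igf1 cluster, where vehicle 1 and vehicle 2 held 0, and 74 of 99 in the Sfrp2 cluster. Without PBMCsec 1 the pooled value of Zbtb16 in libraries 1 and 2 was 19.3 CPM in the Igf1 cluster and 57.0 CPM in the Sfrp2 cluster. Without it, libraries 3 and 4 were lower in 5 of 5 FB clusters for Fkbp5 and Hsd11b1. The count was 4 of 5 for Tsc22d3, Klf9 and Zbtb16, 3 of 5 for Sgk1 and 1 of 5 for Nr3c1. For Fkbp5, PBMCsec 1 held 5 of the 6 UMIs of libraries 1 and 2 in the Ptx3 cluster and 6 of 7 in the Mrgprg cluster. Without PBMCsec 1 the Ptx3 cluster stood at 11.3 CPM against 11.2 in libraries 3 and 4. For Hsd11b1, PBMCsec 2 held 320 UMIs in FBs, against 14 in vehicle 1 and 32 in vehicle 2.

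Outside FBs no gene of the 7 had libraries 1 and 2 apart from libraries 3 and 4, where 10.4% of genes in KCs, 8.89% in TCs and 9.39% in DC/Macro did. The members' medians were -0.25 in KCs, -0.27 in TCs and -0.28 in DC/Macro. In KCs the median depended on the naming, and was -0.76 with classes from markers per cell, where Zbtb16 stood at -2.01, Fkbp5 at -1.62 and Sgk1 at -0.44 in place of 0.22. In DC/Macro without the Cd207 cluster, a setting added after seeing the data, the median was -0.83. There Tsc22d3 stood at -0.83 in place of -0.28, and Sgk1 at -1.66. With classes named by cluster and no cluster removed, the widest single values were -1.54 for Sgk1 in DC/Macro and -0.76 for Fkbp5 in TCs. Hsd11b1 in TCs, at 0.60, was higher in libraries 3 and 4. Whether FBs differ from the other classes in this contrast was not tested.

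**Figure D4:**
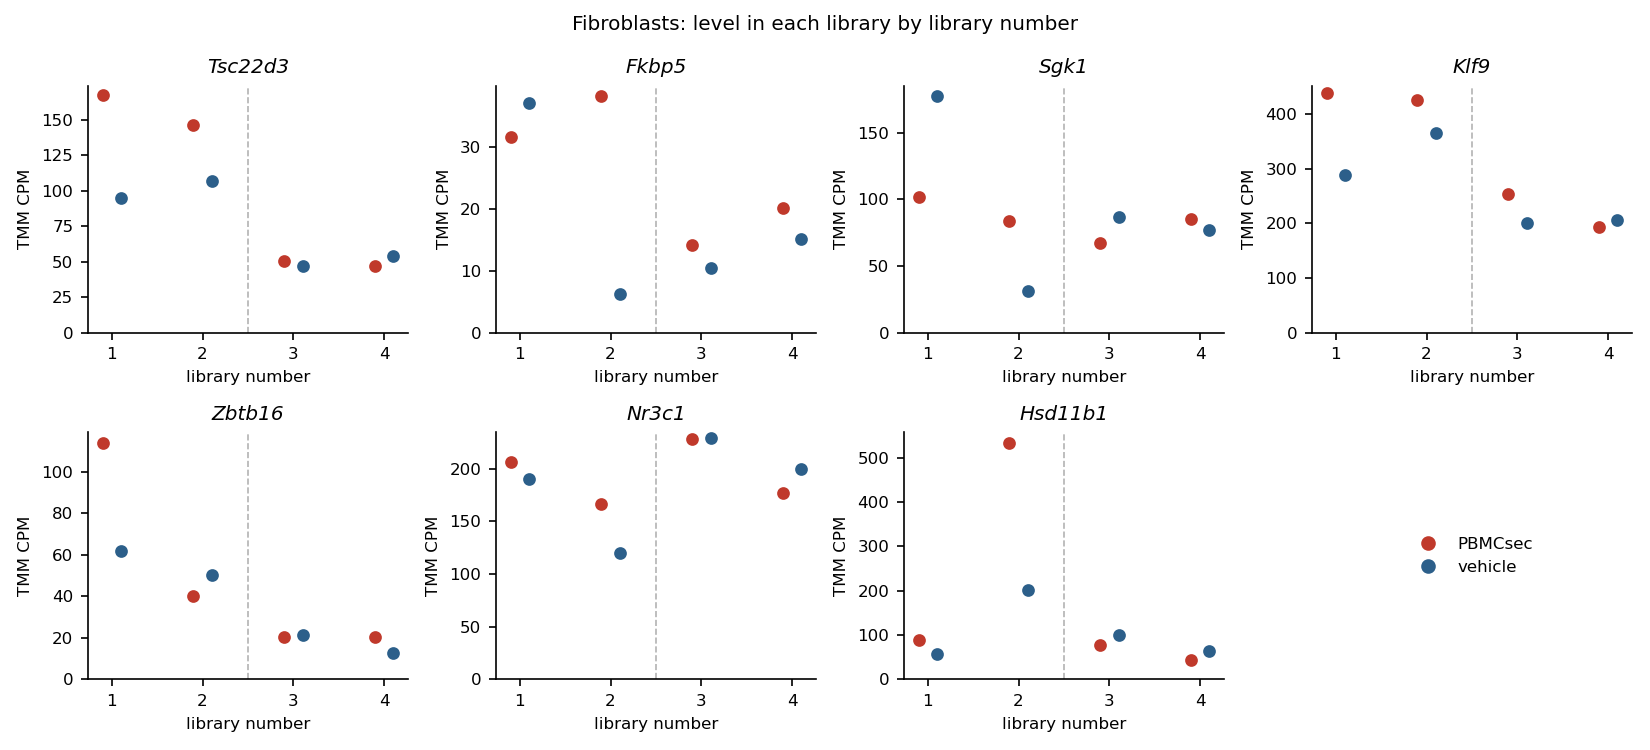
The TMM-scaled CPM of each gene in FBs (vertical axis) is plotted by library number (horizontal axis), red for PBMCsec and blue for vehicle, with a dashed line between numbers 2 and 3. Tsc22d3, Klf9 and Zbtb16 lie higher left of the line in both groups, PBMCsec 2 stands highest for Hsd11b1 at 533 CPM, and Nr3c1 lies between 120 and 229 CPM over all libraries.

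Other lists had lower values in libraries 3 and 4 in FBs as well. Among all FB genes, 3.25% lay lower without overlap and 8.0% did so in either direction, with a median of -0.01. Of 14 clock genes tested, 7 lay lower in libraries 3 and 4 without overlap and 1 higher, with a median log2 difference of -1.10. The clock output genes Hlf (-3.03), Dbp (-2.55) and Tef (-1.88) and the repressors Per3 (-2.56), Nr1d2 (-1.62), Per1 (-1.15) and Cry2 (-1.06) were the 7 lower genes, and the activator gene Arntl (1.5) the higher one. Per1 is on the list of induced genes too. Dusp1, Zfp36 and Nfkbia are on the lists of induced and of stress genes, and Dnajb1 on those of machinery and of stress genes, so the lists are not separate. Of the other induced genes, 21 of 27 had lower values and 5 of them did not overlap, with a median of -0.59. Chosen here after their values were seen, these 5 were Ddit4 (-1.99), Rgs2 (-1.86), Per1, Zfp36l2 (-0.75) and Rhob (-0.62), while Angptl4 (1.14) was higher without overlap. The receptor machinery had 14 of 14 lower, 3 without overlap (Hspa8, Fkbp4 and Crebbp), and a median of -0.47. The inflammatory genes had 6 of 6 lower, none without overlap, and a median of -0.73. The dissociation and stress genes had 17 of 18 lower, 2 without overlap (Hspb1 and Jund), and a median of -0.80. Libraries 1 and 2 also held fewer cells, 151 to 701 against 791 to 1659, and fewer UMIs, 14753926 to 27786595 against 30494307 to 37880651. The part of the daily clock, of tissue handling and of depth in the difference was not tested, and the labels give no time of day or batch for a library number. The methods of the study also describe, within each injected group, mice taken at the end of the injections and mice taken later, and the labels do not say which libraries came from which time. Whether the library numbers follow these times was not tested, and time of sampling and library number cannot be told apart here.

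By treatment, clock genes had a median of 0.11 in FBs (14 tested), -0.43 in KCs (12), -0.17 in TCs (6) and 0.11 in DC/Macro (3), with 0 called. Their genes of lowest p were Dbp (1.55) and Bhlhe40 (-1.11) in FBs, Hlf (-0.82) and Tef (-0.96) in KCs, Per1 (-0.18) and Bhlhe40 (0.21) in TCs, and Per1 (-0.65) and Bhlhe40 (0.60) in DC/Macro. The dissociation and stress genes had medians of -0.09, -0.21, -0.09 and -0.03 with 0 called. Their genes of lowest p were Hspa1a (1.49) and Dnajb1 (0.68) in FBs, Ier2 (-0.57) and Zfp36 (-0.52) in KCs, Hspa1b (-0.52) and Ier3 (0.75) in TCs, and Socs3 (1.94) and Ier3 (1.16) in DC/Macro. Of the stress genes, 7 were higher and 11 lower in FBs, and 4 higher and 14 lower in KCs. Classes from markers per cell gave 10 higher and 8 lower in FBs, and 14 higher and 4 lower in KCs. With the 20% limit as well, 16 were higher and 2 lower in FBs, and 11 higher and 7 lower in KCs. Removal of the highest 5% of doublet scores left medians of -0.08 in FBs and -0.20 in KCs. Socs3, a feedback inhibitor of cytokine signalling, had the smallest adjusted p of all lists, 0.149 by edgeR, with 108 ± 11.1 CPM in PBMCsec and 26.1 ± 14.8 in vehicle (SD, n = 4 each).

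**Figure D5:**
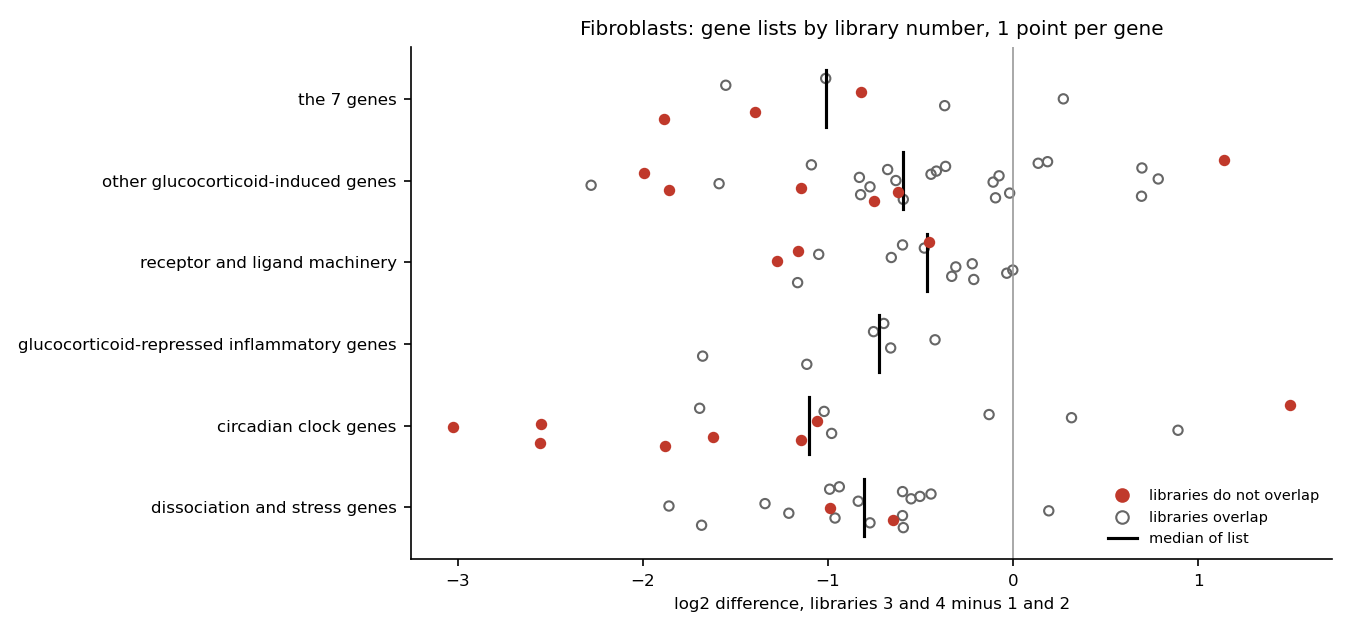
The log2 difference in FBs between libraries 3 and 4 and libraries 1 and 2 (horizontal axis) is plotted with 1 point per gene for each list, filled red where the libraries did not overlap, with the median as a line. The medians lie between -0.47 for the receptor machinery and -1.10 for the clock genes, and the 7 genes have 3 filled points.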

How the data were processed

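Skin biopsies from the back were dissociated enzymatically, and RNA of single cells was captured with a 10x Genomics 3′ kit. Per the labels, the authors aligned reads to mm10 and made the UMI count matrices with Cell Ranger 3.0.2. The deposited values are raw UMI counts per gene and cell in 8 libraries of 14753926 to 37880651 UMIs. After the limits of the study (500 to 4000 genes, no more than 20000 UMIs, a mitochondrial share of up to 5%), 6150 cells were left. Cells were clustered with Seurat 5.3.0 (R 4.3.3), and clusters were named from marker lists. Scrublet called 18 cells doublets, 0.293%, and doublets were not removed. Whether the caller worked at this low share was not tested. Counts were summed per library and class, scaled by TMM, and tested for treatment with edgeR 4.0.16 (quasi-likelihood, filterByExpr, Benjamini-Hochberg adjustment, adjusted p under 0.05), after the script had been tested on simulated data. DESeq2 1.42.0 was an alternative. A floor for 0 cells is 3 counts, and it covers counting error only.

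Library numbers were checked for pairing by the correlation of deviations from the group means. The values for numbers 1 to 4 were 0.32, 0.25, 0.18 and 0.41 in TCs, where all exceeded 0.1, while the lowest was -0.02 in FBs, 0.01 in KCs and 0.09 in DC/Macro. The 7 genes and all gene lists were chosen with earlier results of these data known. By rule, the text names all 7 genes, for each the 2 genes of highest Pearson's r over clusters, and in each class the 2 genes of each list with the lowest unadjusted p. An item that this rule names is not reported here.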

Additional observations from a re-analysis of the deposited data

Results flagged for a closer look

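In 2 of 40 groups of 4 libraries, 1 library stood far from the other 3 (Dixon's ratio of the gap to the range), and chance alone gives about 1 such group in 20. Hsd11b1 in FBs of PBMCsec 2 reached 533 CPM, with the next library of the group at 88.3 (ratio 0.908). A UMI was found in 78.3% of its 69 FBs. Tsc22d3 in DC/Macro of vehicle 1 reached 550 CPM, with the next at 301 (ratio 0.846), where the class held 22 cells. The causes were not tested.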

How the results depend on the processing

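No log2 fold change of the 7 genes passed the threshold under any alternative, and of 349 values 299 had the same direction and 50 the opposite one. The number of genes called among all genes moved as follows. DESeq2 gave 2 in KCs, 2 in TCs and 6 in DC/Macro, and no filter on low counts 19, 40 and 115. The replicate block gave 7 in TCs and 4 in DC/Macro. In TCs the correlation of every number exceeded 0.1. In DC/Macro 3 of 4 did, at 0.28 to 0.32, and the fourth was 0.09. There 8 of 8 libraries correlated best with their own number, against 7 in TCs and 4 in FBs and in KCs. The treatment tests in the results used no block in any class. Libraries numbered 1 and 2 alone gave 2 in FBs, 5 in KCs, 1 in TCs and 7 in DC/Macro, and libraries 3 and 4 alone 1 in KCs, 4 in TCs and 1 in DC/Macro. In DC/Macro, classes from markers per cell gave 1, the mitochondrial limit of 20% with those classes 3, and removal of the highest 5% of doublet scores 2. Leaving out 1 library gave 0 to 3 in KCs and 0 to 1 in TCs and DC/Macro.

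Directions that turned were as follows, as log2 fold changes. Libraries 3 and 4 alone gave, in FBs, Tsc22d3 -0.030, Nr3c1 -0.070 and Hsd11b1 -0.44, in KCs, Sgk1 0.25 and Klf9 0.12, in TCs, Sgk1 -0.22, and in DC/Macro, Sgk1 -1.23 and Nr3c1 0.12. Libraries 1 and 2 alone gave, in KCs, Zbtb16 -0.94 and Nr3c1 -0.13, and in TCs, Tsc22d3 -0.14 and Nr3c1 -0.025. Classes from markers gave, in FBs, Nr3c1 -0.068, and in KCs, Tsc22d3 0.27, Sgk1 0.37 and Nr3c1 -0.0034. The 20% limit gave, in FBs, Sgk1 0.016 and Nr3c1 -0.042, and in KCs, Sgk1 0.39, Zbtb16 -0.41 and Nr3c1 -0.053. The replicate block gave Sgk1 0.010 in KCs and -0.18 in DC/Macro, and Nr3c1 -0.039 in TCs. Library totals gave Nr3c1 -0.021 in FBs and -0.064 in TCs, DESeq2 Zbtb16 -0.14 in KCs, doublet removal Nr3c1 -0.012 in TCs, and DC/Macro without the Cd207 cluster, added after seeing the data, Nr3c1 0.12. Leaving out 1 library, the ranges were, in FBs, Sgk1 -0.33 to 0.22, Zbtb16 -0.12 to 1.24, Nr3c1 -0.085 to 0.18 and Hsd11b1 -0.49 to 1.21, in KCs, Sgk1 -0.25 to 0.14 and Zbtb16 -0.18 to 0.40, in TCs, Tsc22d3 -0.030 to 0.39 and Nr3c1 -0.19 to 0.15, and in DC/Macro, Sgk1 -0.21 to 0.57 and Nr3c1 -0.47 to 0.16. The causes were not tested.

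By library number, leaving out 1 library also turned Sgk1 in FBs to 0.03 (without vehicle 1), Tsc22d3 in DC/Macro to 0.01 (without vehicle 1), Tsc22d3 in TCs to 0.0057 (without vehicle 1), and Nr3c1 in DC/Macro, at 0.05 with all libraries, to -0.18, -0.31 and -0.26 (without PBMCsec 2, PBMCsec 3 and vehicle 3). Zbtb16 in KCs moved to -1.13 without PBMCsec 3, to -2.01 with classes from markers per cell and to -2.16 with the 20% limit as well, and Nr3c1 in KCs turned to -0.038 and -0.11 in the last 2 settings. The level of Sgk1 in KCs rested on the naming, with 155 CPM for classes from markers per cell. With few FBs in vehicle 1 (28) and vehicle 2 (21), low genes such as Fkbp5 rest on single UMIs there.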
